A study of Mus musculus with 2 samples.

Results

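The TGF-beta ligand *Tgfb1*, its receptors *Tgfbr1* and *Tgfbr2*, and the genes *Tgfbi*, *Smad7*, *Smad3*, *Skil* and *Ski*, which carry, restrain or report its signal, were followed in single leukocytes of mouse lung tumors. These 8 genes were picked by symbol from the 27998 gene rows of the count matrices, after a difference in *Tgfb1* between the libraries had been seen. The *Tgfb1* difference below is therefore a description, and the open question was whether the receptors and response genes moved with it. Lewis lung carcinoma (LLC) cells, a mouse lung cancer line, were implanted under the skin of C57/BL6 mice at 8 weeks of age, and tumors were taken 14 days later, at 10 weeks. CD45+ cells, the leukocyte fraction, were sorted and profiled with droplet 3′ single-cell RNA-Seq.

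All mice carried floxed alleles of the microRNA miR-21 (*miR-21fl/fl*), and the conditional knockout mice also carried *LysMCre*, a Cre driven by the lysozyme M promoter that acts mainly in macrophages, monocytes and granulocytes. Cells of 3 mice were pooled into 1 library per genotype, so no value has a replicate. The title of each library gives it one genotype and the description of its cell source gives it the other, and one protocol text describes a macrophage sort (CD45+, CD11b+, MHCII+, F4/80+) in place of a CD45+ sort. Each library is therefore named by its title, as labelled wt or labelled cko. Differences are log2 ratios of cko over wt with exact 95% intervals. The intervals reflect counting error alone. How far mice or pools vary was not measured, and no p-value can be given.

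TGF-beta is secreted in a latent complex and is released by integrins and proteases. Active ligand joins TGFBR2 to TGFBR1, whose kinase phosphorylates SMAD2 and SMAD3, and these enter the nucleus with SMAD4. SMAD7 blocks the receptor and is itself induced by the signal, whereas SKI and SKIL are nuclear co-repressors bound to the SMADs. In tumors, TGF-beta made by macrophages and regulatory T cells is known for restraining cytotoxic T cells and NK cells and for remodeling the matrix.

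Because miR-21 is the deleted microRNA, its sequence and its seed matches in the transcripts of the 8 genes are shown. The mature strand miR-21a-5p lies at chr11:86584120-86584141 on the minus strand (RefSeq, GRCm38.p6), and capitals mark the seed, bases 2 to 8, with which a microRNA pairs to its targets.
miR-21a-5p: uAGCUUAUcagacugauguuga

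The letters complementary to the seed, ATAAGCT, the same letters followed by A, ATAAGCTA, and the shorter form TAAGCTA were searched on the transcript strand in the 3′ untranslated region (UTR), using the longest annotated 3′ UTR of each gene in the GENCODE annotation of GRCm38. An ATAAGCTA match holds both shorter forms and was counted once. Matches were found in 5 of the 8 genes. Of 9282 genes with enough counts and an annotated 3′ UTR, 12.1% held at least 1 match and 2.09% held ATAAGCTA, with a median 3′ UTR length of 1122 bases. The members differed widely in length, from 135 bases in *Tgfb1* to 6085 bases in *Tgfbr2*. The windows below end at the match, which is in capitals.
Tgfbr1, chr4:47412720-47412741, plus strand: gtatcacctgcttaaATAAGCT
Tgfbr1, chr4:47413326-47413347, plus strand: tgtcaataccctggtTAAGCTA
Tgfbr2, chr9:116090136-116090157, minus strand: ggagactgtcatggcATAAGCT
Tgfbi, chr13:56639170-56639191, plus strand: gaaacggcatcactATAAGCTA
Ski, chr4:155157036-155157057, minus strand: tttacacttttgttATAAGCTA

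*Smad7* also held 1 ATAAGCTA match in its 1570-base 3′ UTR. The 3′ UTRs of *Tgfb1* (135 bases), *Smad3* (3495 bases) and *Skil* (3964 bases) held none of these letters. A match is a stretch of letters, and binding of miR-21 was not measured.

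The files hold 2449 cells labelled wt, with 24492486 unique molecular identifiers (UMIs, counted RNA molecules), and 2718 cells labelled cko, with 27163485 UMIs, at median depths of 8359 and 8247 UMIs per cell. After quality and doublet filters, 2397 and 2645 cells remained, and 5 cell barcodes occurred in both libraries. Cells were classed by UMIs of marker genes that are none of the 8 members. Monocyte/macrophage-like cells made up 82.3% and 80.3% of the kept cells, T-like cells 5.97% and 6.73%, and NK-like cells 2.29% and 1.97%. The mix within the monocyte/macrophage-like cells differed. C1q macrophage-like cells, defined below, were 19.6% and 26.2% of kept cells, and classical monocyte-like cells 29% and 24.9%. The part of this shift in the pooled ratios was not tested. The gates were checked with genes they did not use. The T and NK genes *Cd2*, *Lck*, *Nkg7* and *Thy1* summed to 4702 and 4677 CPM in T-like cells, where CPM is the UMI count of a gene scaled to all UMIs of the class. They summed to 16.6 and 17.5 CPM in monocyte/macrophage-like cells. *Lyz2*, the gene whose locus carries the LysM Cre, was at 19594 CPM in monocyte/macrophage-like cells labelled wt and 9362 CPM in those labelled cko, a log2 ratio of -1.07 (-1.07 to -1.06). *Vmp1*, whose transcription unit runs up to the miR-21 gene, was at 240 and 228 CPM. Neither value was used to move a library.

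*Tgfb1* (chromosome 7, 25687002 to 25705077, plus strand, mm10) was the member that set the libraries apart. In monocyte/macrophage-like cells it stood at 459 CPM (450 to 469) in the library labelled wt, from 9101 UMIs in 1973 cells. In the library labelled cko it stood at 175 CPM (169 to 181), from 3696 UMIs in 2125 cells. The log2 ratio was -1.39 (-1.45 to -1.34), or 2.63-fold lower. Of all 9543 genes that reached 100 UMIs in these cells of the 2 libraries together, 68 (0.713%) were lower by 1.5-fold or more and 189 (1.98%) were higher. Among the 503 genes counted at least as often as *Tgfb1*, 2 were lower by 1.5-fold, *Tgfb1* itself and *Lyz2*.

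*Tgfb1* was lower labelled cko in each of the 5 classes of monocytes and macrophages, and whether the size differed between classes was not tested. C1q macrophage-like cells, with high complement C1q and little *Ly6c2*, had 501 CPM of *Tgfb1* labelled wt and 187 CPM labelled cko (-1.43, -1.51 to -1.34). Transitional cells, with both C1q and the monocyte gene *Ly6c2*, had 467 and 177 CPM (-1.40, -1.56 to -1.25). Nonclassical monocyte-like cells, marked by *Ace*, *Treml4* or *Adgre4*, had 462 and 172 CPM (-1.43, -1.62 to -1.24). In neither library did these 3 classes separate beyond their intervals as neighbours in the order of levels. Classical monocyte-like cells, with *Ly6c2* and little C1q, had 449 and 159 CPM (-1.50, -1.61 to -1.39), below the C1q macrophage-like cells in each library. The remaining monocyte/macrophage-like cells had the lowest level of the 5 classes labelled wt, 362 CPM, and the smallest difference, at 170 CPM labelled cko (-1.09, -1.26 to -0.92).

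Lymphocytes and dendritic-like cells held less *Tgfb1* than macrophages in each library, and they also held less in the library labelled cko. NK-like cells had 202 CPM (163 to 248) labelled wt and 70.6 CPM (48.3 to 99.6) labelled cko, a log2 ratio of -1.52 (-2.15 to -0.92) from 92 and 32 UMIs. The NK-like gates differed in content, since *Ccr7*, a gene of mature dendritic cells, was counted 74 and 2 times in them and the plasmacytoid genes *Siglech* 21 and 0 times and *Ccr9* 22 and 0 times. Without the 5 and 3 NK-like cells that held at least 3 dendritic or plasmacytoid UMIs, *Tgfb1* was at 184 and 73.5 CPM (-1.33, -1.99 to -0.69). CD8 T-like cells had 129 and 48.8 CPM (-1.40, -1.93 to -0.89), and CD8-negative T-like cells 191 and 63.9 CPM (-1.58, -2.26 to -0.93). These lymphocytes as a rule do not express lysozyme M, and *Lyz2* was at 459 and 272 CPM in T-like cells, 2.67% and 3.43% of its all-cell level. T-like cells with a UMI of *Foxp3*, the regulatory T cell factor, had 299 CPM (192 to 445) and 77.7 CPM (40.2 to 136), from 24 UMIs in 11 cells and 12 UMIs in 19 cells. That gave a log2 ratio of -1.94 (-3.08 to -0.89).

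Neutrophil genes differed in the T-like gate, where *S100a8*, *S100a9*, *G0s2* and *Mmp9* summed to 813 CPM labelled wt and 339 CPM labelled cko (-1.26, -1.42 to -1.10). Without the 19 and 31 T-like cells that held a UMI of *Csf3r*, *Cxcr2* or *Retnlg* or at least 20 UMIs of *S100a8* and *S100a9*, the *Tgfb1* level of T-like cells was 160 and 46.5 CPM (-1.78, -2.28 to -1.31). With all T-like cells the ratio was -1.50 (-1.90 to -1.10). Leaving out these T-like and NK-like cells was decided after their values were seen.

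Dendritic-like cells had 146 and 66.3 CPM (-1.14, -1.76 to -0.54). Their gates differed in content, with *Ccr7* at 634 and 1738 CPM, *Xcr1* at 200 and 116 CPM and *Clec9a* at 67.2 and 18.9 CPM. Plasmacytoid dendritic-like cells had 207 and 69.4 CPM (-1.58, -3.06 to -0.28). Neutrophil-like cells had 129 and 42.9 CPM (-1.59, -2.96 to -0.26), but the 12 UMIs labelled wt lay in 3 of 22 cells (13.6%, 2.91 to 34.9) and the 10 UMIs labelled cko in 7 of 56 (12.5%, 5.18 to 24.1). At the C1q rate, 7.13% and 2.66% of the all-cell level in that gate, free RNA would give 30.4 and 4.15 CPM. The shares of cells were close and few cells carried the level, so no difference is read in this class. Intervals of neighbouring lymphoid, dendritic and neutrophil classes overlapped, so their order was not resolved. Over the 10 classes other than neutrophil-like and B-like cells the *Tgfb1* ratio lay between -1.58 and -1.09, each interval stayed below 0, and 9 of the 10 intervals held the ratio of all kept cells, -1.45. The exception was the remaining monocyte/macrophage-like class. B-like cells (4 and 3 cells, 9 and 4 UMIs) gave 0.17 with an interval from -1.98 to 2.01, which does not resolve a direction.

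**Figure D1:**
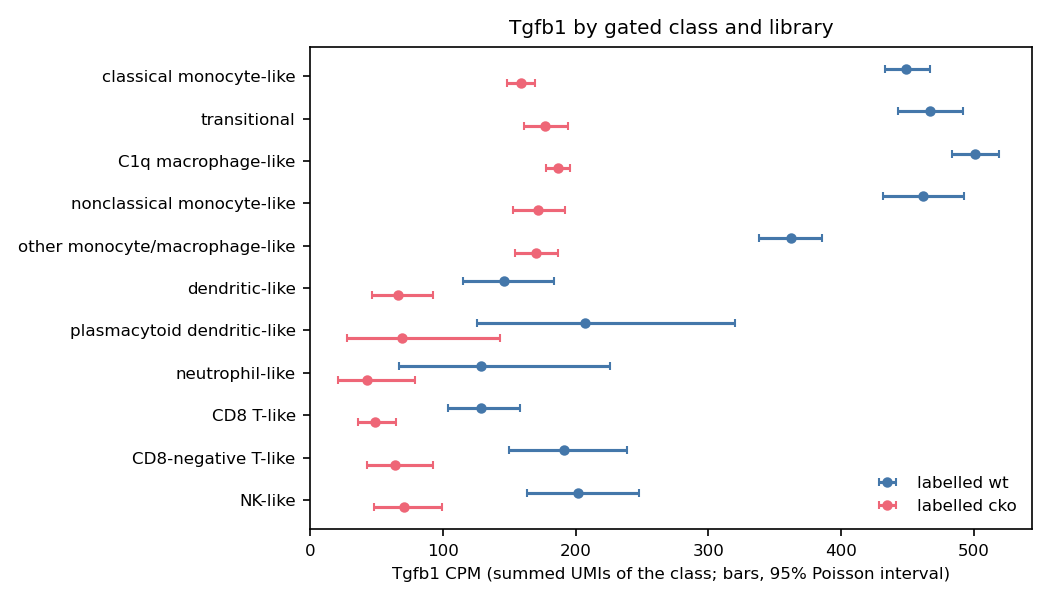
*Tgfb1* level in CPM (x axis) in 11 gated classes (y axis) labelled wt (blue) and cko (red), with 95% Poisson intervals. Monocyte and macrophage classes lie between 362 and 501 CPM labelled wt and between 159 and 187 CPM labelled cko, and the summed level is lower labelled cko in each class (in neutrophil-like cells from 12 and 10 UMIs).

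Free RNA in droplets can place macrophage transcripts in lymphocytes. The C1q genes, made by macrophages, reached 3.00% and 3.47% of their all-cell level in T-like cells labelled wt and cko, and *Tgfb1* from the same source would amount to 12.8 and 5.41 CPM. The measured levels in T-like cells were 151 and 53.4 CPM. For NK-like cells the estimates were 11.9 and 4.21 CPM, against the 202 and 70.6 CPM given above. In either class and library, the measured *Tgfb1* was above the estimate.

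The libraries also differed in the number of *Tgfb1* UMIs per cell. After each cell was thinned to 3000 UMIs, 70.5% (68.4 to 72.5) of monocyte/macrophage-like cells labelled wt and 37.0% (35.0 to 39.1) of those labelled cko held a *Tgfb1* UMI, with means of 1.36 and 0.504 UMIs per cell. In the thinned cells 1 UMI was found in 31.3% and 26.7%, 2 UMIs in 22.4% and 7.95%, and 3 UMIs in 9.98% and 1.74%. Without thinning the shares with a *Tgfb1* UMI were 92.8% and 72.4%. In T-like cells, thinned alike, 33.6% and 13.5% held a UMI. In bins of cell depth the *Tgfb1* ratio was -1.16 (-1.36 to -0.97) in cells of 3000 to 6000 UMIs, -1.43 from 6000 to 10000, -1.40 from 10000 to 20000 and -1.42 above. The shallowest cells thus had the smallest difference.

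**Figure D2:**
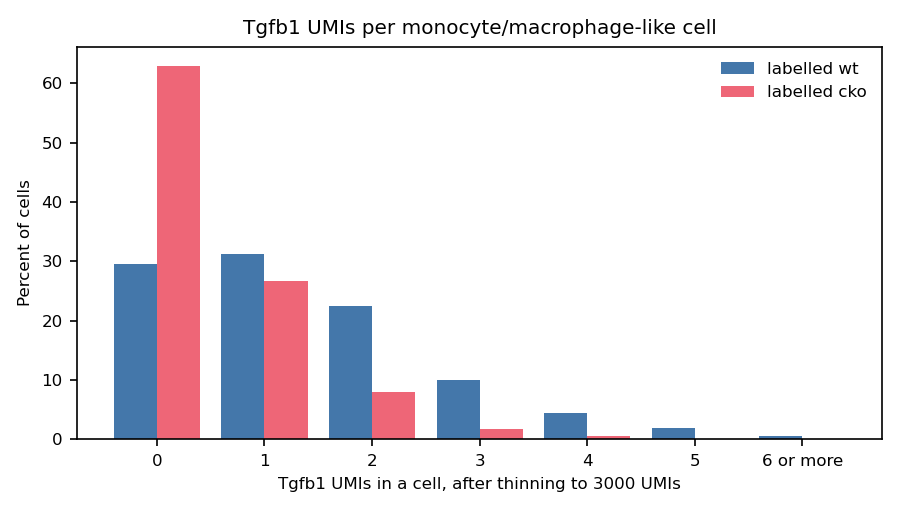
Percent of monocyte/macrophage-like cells (y axis) with each number of *Tgfb1* UMIs (x axis) after thinning to 3000 UMIs, labelled wt (blue) and cko (red). Cells without a UMI are 29.5% labelled wt and 63.0% labelled cko, and each higher number is more frequent in the library labelled wt.

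The genes beside *Tgfb1* on chromosome 7 did not share its difference. Of 19 genes within 250 kb, 9 had at least 100 UMIs, and their log2 ratios lay between 0.03 and 0.19. *B9d2*, the nearest gene upstream, had 40.1 and 43.6 CPM (0.12, -0.02 to 0.26), and *Axl*, a receptor kinase of macrophages, had 49.8 and 56.8 CPM (0.19, 0.06 to 0.31). Among the genes under 100 UMIs, *Cyp2s1* had 33 and 11 UMIs (-1.68, -2.81 to -0.66) and was singled out after its value was seen.

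The receptors did not follow the ligand. *Tgfbr1* (chromosome 4, 47353222 to 47414931, plus strand), the signaling kinase, had 18.0 CPM (16.2 to 20) labelled wt and 16.2 CPM (14.6 to 18.0) labelled cko in monocyte/macrophage-like cells, a log2 ratio of -0.15 (-0.37 to 0.07). *Tgfbr2* (chromosome 9, 116084293 to 116175360, minus strand), which binds the ligand, had 26.0 CPM (23.8 to 28.4) and 25.3 CPM (23.2 to 27.5), a log2 ratio of -0.04 (-0.22 to 0.13). The interval of either receptor thus allows a small change and leaves out one as large as that of *Tgfb1*.

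Between cell classes the receptors were ordered differently. *Tgfbr2* was highest among the monocyte and macrophage classes in C1q macrophage-like cells, at 37.0 and 32.9 CPM, and lowest in classical monocyte-like cells, at 17.5 and 15.8 CPM. Among the same classes *Tgfbr1* was highest in nonclassical monocyte-like cells, at 28.1 and 32.3 CPM, and stood at 14.5 and 14.2 CPM in C1q macrophage-like cells. The intervals of the named highest and lower classes did not overlap. Some neighbours in either order did, such as nonclassical and remaining cells labelled wt for *Tgfbr1* (21.1 to 36.6 and 18.1 to 30.6) and classical and remaining cells labelled wt for *Tgfbr2* (14.3 to 21.1 and 16.0 to 27.9). Other neighbours did not, such as nonclassical and transitional cells labelled cko for *Tgfbr1* (24.5 to 41.8 and 13.4 to 24.3) and C1q macrophage-like and transitional cells labelled wt for *Tgfbr2* (32.4 to 42.1 and 19.9 to 31.5). The only *Tgfbr1* interval off 0 in the 5 classes was that of the remaining monocyte/macrophage-like cells, with 23.7 and 12.5 CPM (-0.92, -1.61 to -0.26; 59 and 30 UMIs). In T-like cells *Tgfbr2* was at 38.5 and 47.2 CPM (0.29, -0.28 to 0.88), and *Tgfbr1* at 8.07 and 9.58 CPM from 9 and 14 UMIs.

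*Smad3* (chromosome 9, 63646767 to 63757994, minus strand), the transcription factor that the receptor activates, had 7.41 CPM (6.26 to 8.71) labelled wt and 7.76 CPM (6.61 to 9.04) labelled cko, a log2 ratio of 0.07 (-0.26 to 0.40). In the 5 monocyte and macrophage classes its ratio ran from -0.54 in nonclassical monocyte-like cells to 0.47 in transitional cells, and each interval held 0. In T-like cells it was counted 6 and 9 times.

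*Smad7* (chromosome 18), the inhibitory SMAD that TGF-beta induces, was higher in the library labelled cko. Monocyte/macrophage-like cells had 21.4 CPM (19.4 to 23.6) labelled wt and 26.2 CPM (24.1 to 28.5) labelled cko, a log2 ratio of 0.29 (0.11 to 0.48). The ratio was between 0.10 and 0.32 in the 5 classes, and each of their intervals held 0. T-like cells had 26.9 and 46.5 CPM (0.79, 0.15 to 1.46; 30 and 68 UMIs). The share of T-like cells with a *Smad7* UMI, thinned to 3000 UMIs, was 14.0% (8.76 to 20.8) labelled wt and 11.2% (7 to 16.8) labelled cko. At 1000 UMIs it was 2.80% and 6.18%, and without thinning 19.6% and 25.8%. The order of the shares thus changed with the depth, and no direction is read from them.

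The co-repressors gave no common direction. *Skil* (chromosome 3, 31095058 to 31122577, plus strand), itself a target of the signal, had 19.2 CPM (17.3 to 21.2) and 16.2 CPM (14.6 to 18.0), a log2 ratio of -0.24 (-0.46 to -0.03). It was lower in nonclassical monocyte-like cells (26.0 and 14.5 CPM; -0.84, -1.59 to -0.13) and in the remaining class (26.9 and 18 CPM; -0.59, -1.17 to -0.01), the direction of *Tgfb1*, and stood at 13.4 and 15.5 CPM in C1q macrophage-like cells (0.21, -0.19 to 0.62). *Ski* (chromosome 4, 155154075 to 155222592, minus strand) had 12.8 CPM (11.2 to 14.4) and 14.1 CPM (12.6 to 15.8), a log2 ratio of 0.15 (-0.10 to 0.40). In T-like cells *Skil* had 21.5 and 20.5 CPM (-0.07, -0.89 to 0.77) and *Ski* 14.3 and 7.53 CPM (-0.93, -2.18 to 0.27), the latter from 16 and 11 UMIs.

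*Tgfbi* (chromosome 13, 56609523 to 56639562, plus strand) encodes a secreted matrix protein named for its induction by TGF-beta and is a well-known gene of monocytes. It was counted 37223 and 46958 times in monocyte/macrophage-like cells, at 1877 CPM (1858 to 1897) labelled wt and 2221 CPM (2201 to 2241) labelled cko. Its log2 ratio was 0.24 (0.22 to 0.26), opposite in sign to that of *Tgfb1*. Classical monocyte-like cells were nearly level, at 2266 and 2380 CPM (0.07, 0.04 to 0.11). Transitional cells had 1901 and 2440 CPM (0.36, 0.31 to 0.41), and C1q macrophage-like cells 1399 and 1963 CPM (0.49, 0.45 to 0.53). Nonclassical monocyte-like cells had 1783 and 2145 CPM (0.27, 0.20 to 0.33), and the remaining class had 2204 and 2611 CPM (0.24, 0.19 to 0.30). The interval stayed above 0 in each of the 5 classes, and the ratio was largest in the C1q macrophage-like class, whose level was the lowest of the 5 in each library.

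Dendritic and lymphoid cells held little *Tgfbi*. Dendritic-like cells had 204 and 208 CPM (0.03, -0.37 to 0.44). T-like cells had 26.0 and 57.5 CPM (1.14, 0.52 to 1.81; 29 and 84 UMIs). Free RNA at the C1q rate would give 49.0 and 65.6 CPM there, above both values, and its part in the difference was not tested. CD8-negative T-like cells had 23.2 and 100 CPM (9 and 44 UMIs; estimates 55.0 and 74.1 CPM), and NK-like cells 41.8 and 86.0 CPM (19 and 39 UMIs; estimates 45.6 and 51.0 CPM). Estimated from *Lyz2* instead of C1q, free RNA would give 49.5 and 99.7 CPM in CD8-negative T-like cells and 37.7 and 62.7 CPM in NK-like cells. In CD8-negative T-like cells the measured value was below both estimates labelled wt and above both labelled cko, although by little for that from *Lyz2*. Without the T-like cells that held neutrophil UMIs and the NK-like cells that held dendritic or plasmacytoid UMIs, the ratio was 1.31 (0.61 to 2.07) in T-like cells, 2.53 (1.36 to 3.93; 7 and 42 UMIs) in CD8-negative T-like cells and 0.62 (-0.27 to 1.56; 18 and 29 UMIs) in NK-like cells. The part of free RNA in these lymphocyte values was not tested. Neutrophil-like cells, with 22 and 56 cells, had 1099 and 652 CPM (-0.75, -1.12 to -0.38). The C1q genes in that gate were at 7.13% of their all-cell level labelled wt and at 2.66% labelled cko, and their part in the *Tgfbi* difference was not tested.

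In monocyte/macrophage-like cells, 0 of the 7 members other than *Tgfb1* were lower by 1.5-fold or more and 0 were higher, where the background was 0.713% and 1.98% of genes. All 7 had at least 100 UMIs. The intervals of *Tgfbi* and *Smad7* lay above 0, that of *Skil* below 0, and those of the other 4 held 0. The lowest of the 7 lower bounds was -0.46, that of *Skil*. Their median log2 ratio was 0.07, against 0.03 over the 9543 genes, of which 5% lay below -0.27 and 5% above 0.40. Over the same genes, intervals lay above 0 for 17% and below 0 for 8.25%.

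**Figure D3:**
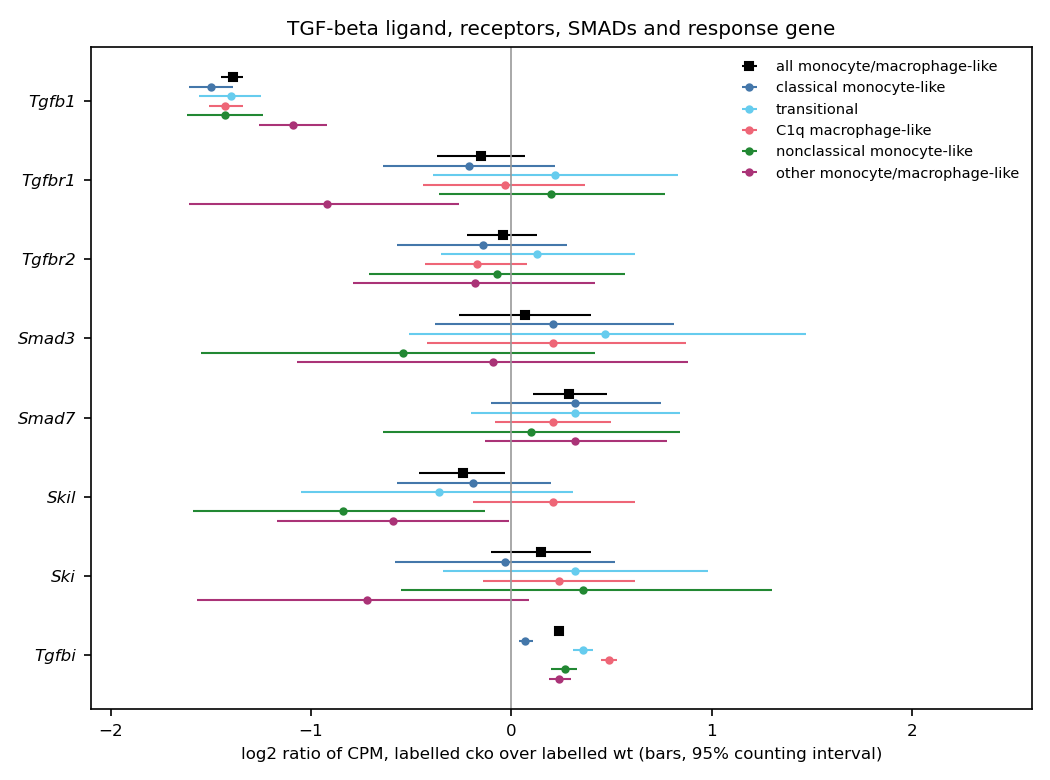
Log2 ratio of CPM, labelled cko over labelled wt (x axis), of the 8 genes (y axis) in all monocyte/macrophage-like cells (black squares) and in their 5 classes (colored points), with 95% counting intervals. *Tgfb1* lies between -1.50 and -1.09 in the 5 classes, while the other 7 genes lie around 0 in all monocyte/macrophage-like cells, from -0.24 to 0.29.

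T-like cells were too few for most members. *Tgfb1*, *Tgfbr2* and *Tgfbi* reached 100 UMIs there. *Tgfb1* was 2.82-fold lower (151 and 53.4 CPM) and *Tgfbi* 2.21-fold higher, at levels below the free RNA estimates given above, where 1.56% and 3.34% of 3324 genes were lower or higher by 1.5-fold or more. *Tgfbr2* was within that limit.

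A wider list of 67 TGF-beta pathway genes placed the members among their partners. Of these, 46 had at least 100 UMIs in monocyte/macrophage-like cells, 2 were lower by 1.5-fold or more (*Tgfb1*, for which the list was made, and *Mmp9*) and 0 were higher, beside 0.713% and 1.98% of all genes. Their median ratio was 0.03, the same as over all genes, with 8 intervals below 0 (8.25% of all genes) and 12 above (17% of all genes). As a share of the 46 genes either count was above that of all genes. *Tgfb1* was the only ligand counted in number: *Tgfb2* had 3 and 2 UMIs and *Tgfb3* had 8 and 17 UMIs. *Ltbp4*, a latent TGF-beta binding protein, had its symbol on more than 1 row and was not used.

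Among the 17 genes of latency and activation, 8 had enough counts. *Nrros*, which tethers latent TGF-beta on myeloid cells, was at 346 and 338 CPM (-0.03, -0.08 to 0.01). *Lrrc32*, its counterpart on regulatory T cells, had 1 and 0 UMIs, and the integrin chain *Itgb8* had none, which allows up to 3 UMIs per library. The integrin chains *Itgb1* (150 and 166 CPM; 0.14, 0.07 to 0.22) and *Itgb5* (77.2 and 85.0 CPM; 0.14, 0.04 to 0.24) were slightly higher labelled cko. The membrane protease *Mmp14* was lower, at 92.6 and 70.8 CPM (-0.39, -0.48 to -0.29).

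*Mmp9*, a secreted gelatinase, was at 117 and 43.7 CPM (-1.42, -1.53 to -1.31), a difference of which few cells held a large part. Monocyte/macrophage-like cells with at least 5 UMIs of *Ctsk*, the cathepsin of osteoclasts, numbered 6 and 4, and they held 78.2% and 44.4% of the *Mmp9* UMIs of the class. Without them *Mmp9* was at 25.7 and 24.4 CPM (-0.08, -0.26 to 0.10), while *Tgfb1* remained at 463 and 175 CPM (-1.40, -1.46 to -1.35). The classes differed in what remained. *Mmp9* without these cells was at 37.8 and 44.7 CPM in C1q macrophage-like cells (0.24, 0.01 to 0.48), at 14.6 and 3.90 CPM in nonclassical monocyte-like cells (-1.90, -3.34 to -0.67) and at 76.2 and 35.1 CPM in the remaining class (-1.12, -1.52 to -0.73). In classical monocyte-like cells it went from -3.04 (-3.74 to -2.40) with them to -0.50 (-1.35 to 0.32) without, when 1 cell labelled wt was left out. This comparison was chosen after the values were seen. Without these cells *Tgfb1* was the 1 list gene lower by 1.5-fold.

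Of the 7 receptors and co-receptors, 5 had enough counts, and 1 interval lay above 0, beside 17% of all genes. *Acvrl1*, a type I receptor, had 62.3 and 70.9 CPM (0.19, 0.08 to 0.30). All 9 signal carriers had enough counts, with a median ratio of 0.05. *Smad2*, the partner of *Smad3*, had 35.3 and 36.1 CPM (0.03, -0.12 to 0.18), and *Smad4* 10.0 and 10.4 CPM (0.05, -0.24 to 0.33). Of the 15 genes listed as inhibitors and co-repressors, 12 had enough counts, with 2 intervals below 0 and 2 above (8.25% and 17% of all genes). The grouping was set by the list, and whether each gene restrains the signal was not tested. *Dab2*, an endocytic adaptor of the receptors, was at 371 and 323 CPM (-0.20, -0.24 to -0.15), and *Fkbp1a*, which holds the type I receptor inactive, at 239 and 251 CPM (0.07, 0.01 to 0.13).

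Of the 20 response genes, 14 had enough counts, 0 passed 1.5-fold in either direction, 4 intervals lay below 0 and 7 above, where 8.25% and 17% of all genes did. The list does not say whether the signal raises or lowers each gene, so these counts do not show how many followed *Tgfb1*. The *Id* genes, inhibitors of DNA binding, went different ways. *Id2* was at 153 and 196 CPM (0.36, 0.29 to 0.43), *Id1* at 5.55 and 7.38 CPM (0.41, 0.05 to 0.78) and *Id3* at 19.3 and 16.4 CPM (-0.24, -0.45 to -0.02). *Id3* was lower in classical monocyte-like cells (32.8 and 14.9 CPM; -1.13, -1.52 to -0.76) and higher in nonclassical ones (27.0 and 43.5 CPM; 0.69, 0.16 to 1.22). The transcription factor *Bhlhe40* (31.2 and 36.3 CPM; 0.22, 0.07 to 0.38) and the AP-1 subunit *Junb* (404 and 442 CPM; 0.13, 0.09 to 0.17) were higher.

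*Gadd45b*, a stress sensor that SMADs induce, was lower at 47.7 and 41.2 CPM (-0.21, -0.34 to -0.08). It went the other way in T-like cells (31.4 and 77.3 CPM; 1.30, 0.74 to 1.89) and dendritic-like cells (259 and 436 CPM; 0.75, 0.44 to 1.07), and was at 251 and 24.3 CPM (-3.37, -4.41 to -2.48) in NK-like cells, whose gates differed in content as given above. The dendritic-like gates also differed in content, as given above. The chemokine receptor *Cxcr4* was lower in monocyte/macrophage-like cells, at 11.3 and 9.22 CPM (-0.29, -0.58 to -0.01). *Pmepa1*, a commonly used reporter of the signal, was counted 6 and 5 times, too few to read. Genes that move with tissue handling (*Fos*, *Fosb*, *Egr1*, *Jun*, *Ier2*, *Hspa1a*, *Hspa1b*) summed to 1026 and 1377 CPM (0.42, 0.40 to 0.45) in the same cells, all 7 detected in each library. Their part in the response genes was not tested.

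**Figure D4:**
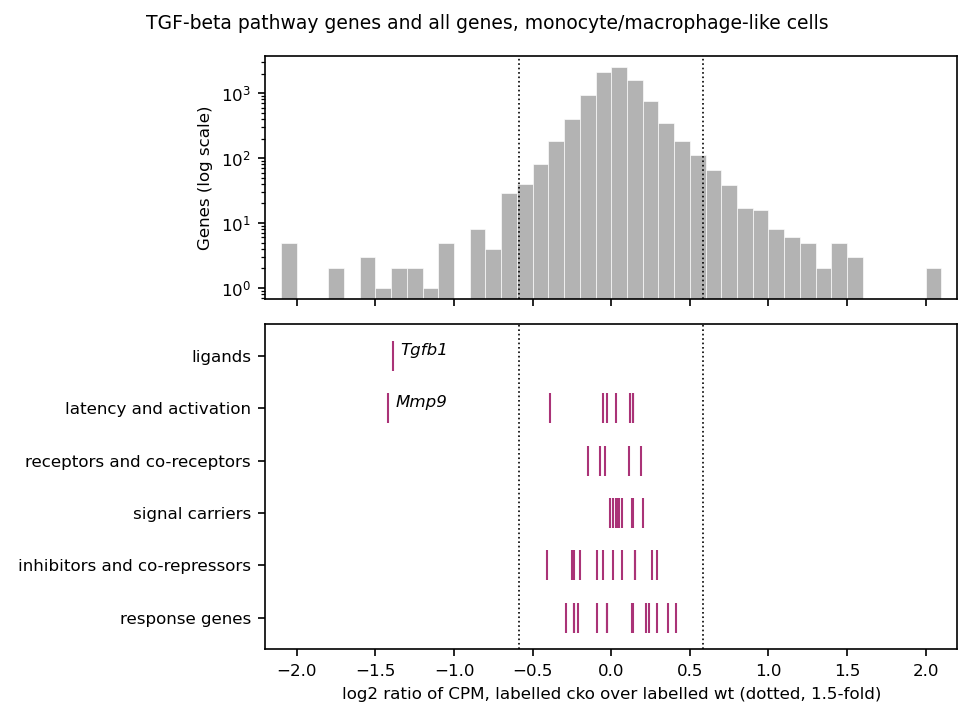
Upper panel, number of genes (log scale) by log2 ratio of CPM, labelled cko over labelled wt, for 9543 genes in monocyte/macrophage-like cells, with values beyond the axis placed in the end bins. Lower panel, the same ratio for 46 pathway genes by role, 1 mark per gene (3 of these genes are drawn in more than 1 role); *Tgfb1* and *Mmp9* lie past the dotted 1.5-fold line and the other genes between the lines.

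Markers of other cells were also summed in monocyte/macrophage-like cells. Platelets store TGF-beta. Their 5 genes summed to 614 and 455 CPM (-0.43, -0.47 to -0.39), of which *Pf4*, also made by macrophages, gave 591 and 426 CPM and the platelet chemokine *Ppbp* 22.7 and 29.3 CPM. The defining platelet genes *Itga2b*, *Gp9* and *Gp1bb* had at most 3 UMIs each in either library, and the part of platelets in the *Tgfb1* difference was not tested further. Fibroblast genes (4 genes; 2.07 and 0.615 CPM), tumor and epithelial genes (4 genes; 3.03 and 5.53 CPM) and erythroid genes (3 genes; 2.98 and 1.37 CPM) were near 0. The tumor and epithelial genes are those of the gate that first set aside cells with at least 3 of their UMIs. Their low level here was thus set by the gating and is no check for tumor cells. In all kept cells they summed to 12.5 and 47.9 CPM (1.94, 1.76 to 2.13). Endothelial genes (3 genes) were at 46.2 and 54.0 CPM. The neutrophil genes (4 genes) were higher labelled cko, at 837 and 1075 CPM (0.36, 0.33 to 0.39), and their part in the member values was not tested.

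The genes whose level across classes and libraries together was most like that of *Tgfb1* were *Bloc1s1* (Pearson's r = 0.818), *Rxra* (0.803), *Cln3* (0.798), *Abl2* (0.797) and *Gamt* (0.787), over 20 pairs of class and library with at least 20 cells and among 10264 genes. The points share 2 libraries and differ in depth, so r is a description, and it reflects the difference between the libraries as well as the order of the classes. Within a library, over 10 classes, r was 0.557 labelled wt and 0.766 labelled cko for *Bloc1s1*, 0.886 and 0.937 for *Rxra*, 0.739 and 0.940 for *Cln3*, 0.776 and 0.881 for *Abl2* and 0.945 in each for *Gamt*. Among the members over all 20 pairs, *Tgfbr1* (0.598) and *Tgfbi* (0.528) were the closest, *Ski* (0.269) and *Smad3* (0.135) were further away, and *Tgfbr2* (-0.039), *Smad7* (-0.173) and *Skil* (-0.206) were unlike it. Within a library, *Tgfbr1* had 0.742 labelled wt and 0.658 labelled cko and *Tgfbi* 0.716 and 0.846. *Ski* had 0.340 and 0.524, and *Tgfbr2* -0.163 and -0.147. *Smad3* (0.606 and 0.098), *Smad7* (0.091 and -0.128) and *Skil* (0.135 and -0.562) differed between the libraries. *Bloc1s1*, a subunit of a lysosome trafficking complex, was at 46.1 and 36.8 CPM in monocyte/macrophage-like cells (-0.33, -0.47 to -0.19), a much smaller difference than that of *Tgfb1*.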

How the data were processed

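The authors deposited raw UMI counts per gene and cell (10x Genomics Chromium 3′ kit, version 2) for 2 libraries of cells already called. The submitters' processing notes name Cell Ranger, Seurat and mm10 without versions. Libraries were grouped by title. The 8 members and all gene lists were chosen with earlier results of these data known. Cells were kept when they had 200 genes or more and no more than 10% mitochondrial UMIs (4 and 14 removed). Scrublet (scanpy 1.11.5) called 0 and 5 doublets automatically, too few to have worked, so the top-scoring 48 and 59 cells (1.96% and 2.17%) were removed.

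Cells were gated in a fixed order on summed marker UMIs: at least 2 for *Cd3d*, *Cd3e* and *Cd3g* (T-like) or *Ncr1*, *Klre1*, *Klrb1c* and *Klri2* (NK-like), and at least 3 for a set of myeloid genes with *Csf1r*, *Adgre1* and *Fcgr1* (monocyte/macrophage-like), which were split at 20 C1q UMIs per 10000 and at 2 *Ly6c2* UMIs. Cells with both lymphoid and at least 4 myeloid UMIs were set aside as mixed lineage (60 and 66 cells), and cells with at least 3 epithelial UMIs (10 and 22) and 76 and 72 ungated cells were also left out. The classes are rebuilt from RNA and may differ from the populations of the study.

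UMIs were summed per class and library and given as CPM with exact Poisson intervals, and ratios with exact conditional binomial intervals. Shares have Clopper-Pearson intervals, and a count of 0 allows 3 UMIs. With 1 library per group there was no test. Statistics were tested on simulated counts that held counting error alone. Variation between cells, mice or pools was not covered by that check. The 8 members, and pathway genes with the 10 lowest upper or 10 highest lower interval bounds off 0, were named, beside the 5 genes most like *Tgfb1* by Pearson's r of log2(CPM + 10) and *Lyz2* and *Vmp1* as genotype checks. Further pathway genes were named as examples of their role after their values were seen. Of the symbols, 56 lay on more than 1 row and were not used for ratios. The miR-21 gene row was not analysed here. Gene positions and 3′ UTRs are from GENCODE (GRCm38, the same assembly as mm10). Python 3.11.15, numpy 2.4.6, scipy 1.17.1, pandas 2.3.3 and matplotlib 3.10.9 were used.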

Additional observations from a re-analysis of the deposited data

Results flagged for a closer look

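*Tgfbi* in neutrophil-like cells had a log2 ratio of -0.75 (-1.12 to -0.38), with 102 UMIs in 22 cells labelled wt and 152 UMIs in 56 cells labelled cko. It drew attention because its interval lay below 0, whereas the interval lay above 0 in 7 other classes (the 5 monocyte and macrophage classes, CD8-negative T-like cells and NK-like cells). The difference between classes was not tested, and the lymphoid values rested on 9 and 44 UMIs (CD8-negative T-like) and 19 and 39 UMIs (NK-like), at levels where the part of free RNA was not tested. Without the T-like cells that held neutrophil UMIs and the NK-like cells that held dendritic or plasmacytoid UMIs, the ratio was 2.53 (1.36 to 3.93) in CD8-negative T-like cells and 0.62 (-0.27 to 1.56) in NK-like cells.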

How the results depend on the processing

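The *Tgfb1* ratio of each class other than B-like cells was recomputed with other scalings, depth limits, gates and filters. So were the ratios of the other members and list genes in all monocyte/macrophage-like cells. Ratios of other genes in single classes were not recomputed in this way, apart from leaving out cells as given above. *Tgfb1* in monocyte/macrophage-like cells was between -1.43 and -1.32 over 11 alternatives, the latter after thinning each cell to 3000 UMIs. In the 11 other classes all 110 planned values were lower by 1.5-fold or more, from -2.18 to -0.80. The shifts beyond counting error were -1.34 (C1q macrophage-like) and -2.18 (CD8 T-like) after thinning, and -1.23 (nonclassical monocyte-like) and -1.27 (remaining monocyte/macrophage-like) with gates lowered by 1 UMI. Leaving out cells of other lineages, added after the data were seen, gave -1.71 to -1.78 in the T-like classes and -1.33 in NK-like cells. Of 77 values of the other members, 0 passed 1.5-fold, and 3 had the other sign. *Tgfbi* was 0.21 with TMM, with median-of-ratios scaling and as a mean over cells, and 0.22 with lowered gates. The list had 1 gene higher after thinning, 6 lower and 1 higher with a minimum of 10 UMIs, and 9 and 2 with a minimum of 1 UMI; without the cells high in *Ctsk*, added after the data were seen, 1 was lower. Shares of cells with a *Tgfb1* UMI were 35.3% and 15.2% at 1000 UMIs and 92.8% and 72.4% without thinning. *Mmp9* was -0.79 as a mean over cells and -0.62 after thinning. Depth limits genes under about 100 UMIs. No paired analysis was possible because each genotype has 1 library.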

Other observations

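*Inhba*, which encodes the TGF-beta family ligand activin A and was not on the pathway list, had 110 UMIs labelled wt and 28 labelled cko in monocyte/macrophage-like cells with fewer than 5 *Ctsk* UMIs, at 5.61 and 1.33 CPM (-2.08, -2.73 to -1.47). It was singled out after its value was seen.

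The monocyte/macrophage-like cells with at least 5 *Ctsk* UMIs (6 and 4 cells) held 97.3% and 97.1% of the *Ctsk* UMIs of the class. They also held 94.3% and 97.8% of those of *Dcstamp*, which is needed for the fusion of osteoclasts, and 90.1% and 80.0% of those of *Atp6v0d2*, a proton pump subunit. *Tgfb1* in these cells was counted 16 and 2 times, at 74.7 and 23.2 CPM (-1.68, -4.85 to 0.40).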
